A study of Homo sapiens with 8 samples.

Results

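The genes described here are the myeloid Fc and TREM receptors FCGR2A, FCGR2B, TREM1, TREM2 and CLEC5A, the adaptors TYROBP and FCER1G that carry the immunoreceptor tyrosine-based activation motif (ITAM), and the kinase SYK that binds the phosphorylated motif. They were chosen by name as 8 genes of the 19775 that the array covers with probe sets of their own, and they hold 13 of its 41091 probe sets listed with exactly 1 gene symbol. They were brought together when the rises of FCGR2B and TREM2 with NR4A1 WT were already known, so the values of all 8 genes for NR4A1 WT, and of TREM2 for NR4A1 CEAA, are given as a description. The cells were Kasumi-1, a human acute myeloid leukemia line with the AML-ETO translocation, here the only line studied. They were electroporated with in vitro transcribed RNA (IVT-RNA) encoding wild type NR4A1 (NR4A1 WT, n = 3 arrays), NR4A1 with a mutated zinc finger in its DNA binding domain (NR4A1 CEAA, n = 2) or, as the control, green fluorescent protein (GFP, n = 3). All groups were electroporated and all RNA was taken 6 h later, then measured on U133 Plus arrays of Affymetrix. Levels are log2 intensities after Robust Multiarray Analysis (RMA), so a difference of 1 is a doubling of signal, and they cannot be compared between probe sets as amounts.

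Receptors of this kind have no kinase of their own. Ligand binding lets Src kinases phosphorylate the ITAM, which lies in the receptor tail in FCGR2A and in the paired adaptor in most others, and SYK docks there and passes the signal on. TREM1, TREM2 and CLEC5A signal through TYROBP (also called DAP12), while FCER1G, the common gamma chain, serves Fc receptors and several C-type lectins. FCGR2B, the inhibitory Fc receptor for IgG, carries the opposite motif, the ITIM, which recruits phosphatases. In the myeloid lineage TREM1 is known for amplifying inflammation and TREM2 for lipid sensing and phagocytosis in macrophages and microglia.

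NR4A1 is a nuclear receptor that binds the NBRE, AAAGGTCA, as a monomer. ETS factors such as PU.1 bind sites built around GGAA. An extended form, AGGAAGT, was searched and is called the ETS core here. The 250 bases before the annotated starts of the genes are in RefSeq (GRCh38.p14) for 8 of 8 genes, in 11 windows. Those of the receptors whose signal changed most, FCGR2B with its 2 windows, TREM2 and CLEC5A, are given here with that of the shared adaptor TYROBP, 5′ to 3′ on the gene's strand. Capitals mark the 7 bases AAGGTCA, which are the NBRE without its first base, and the core AGGAAGT, either on both strands; the 2 do not overlap here.
FCGR2B, upstream start, chr1:161646993-161647242, plus strand: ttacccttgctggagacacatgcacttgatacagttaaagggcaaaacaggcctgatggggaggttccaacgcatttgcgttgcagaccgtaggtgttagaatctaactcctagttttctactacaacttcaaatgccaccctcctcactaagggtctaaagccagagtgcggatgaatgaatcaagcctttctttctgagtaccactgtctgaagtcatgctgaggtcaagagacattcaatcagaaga
FCGR2B, downstream start, chr1:161662893-161663142, plus strand: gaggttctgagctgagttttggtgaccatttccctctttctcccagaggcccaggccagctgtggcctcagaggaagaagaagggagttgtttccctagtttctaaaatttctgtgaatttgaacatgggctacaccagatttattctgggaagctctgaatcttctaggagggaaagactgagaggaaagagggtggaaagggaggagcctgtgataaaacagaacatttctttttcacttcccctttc
TREM2, chr6:41163117-41163366, minus strand: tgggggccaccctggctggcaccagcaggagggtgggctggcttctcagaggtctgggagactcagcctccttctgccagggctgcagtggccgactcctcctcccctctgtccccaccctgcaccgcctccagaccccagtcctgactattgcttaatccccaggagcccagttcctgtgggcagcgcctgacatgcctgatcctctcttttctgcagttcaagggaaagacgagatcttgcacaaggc
CLEC5A, chr7:141946975-141947224, minus strand: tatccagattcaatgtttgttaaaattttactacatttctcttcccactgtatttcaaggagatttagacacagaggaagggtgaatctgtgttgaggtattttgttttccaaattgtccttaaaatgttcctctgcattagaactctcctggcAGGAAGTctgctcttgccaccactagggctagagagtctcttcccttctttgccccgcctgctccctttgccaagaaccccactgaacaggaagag
TYROBP, chr19:35908296-35908545, minus strand: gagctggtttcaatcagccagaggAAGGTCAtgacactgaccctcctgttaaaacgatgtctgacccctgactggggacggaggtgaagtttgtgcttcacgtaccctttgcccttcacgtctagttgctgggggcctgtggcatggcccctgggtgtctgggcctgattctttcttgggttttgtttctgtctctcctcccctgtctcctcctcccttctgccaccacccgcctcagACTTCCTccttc
On both strands the whole NBRE occurred in 0 of the 11 windows, against 1.05% of 35116 windows of this length over all genes. The 7 bases occurred in 1 window, that of TYROBP, at bases 226 to 220 before its start, against 3.44% of all windows. The ETS core was in 3 windows, those of CLEC5A, TYROBP and 1 of the 3 of SYK, against 7.01%. FCGR2B and TREM2 thus had none of these strings in the windows shown, which says nothing of more distant sequence. Other forms with GGAA were not counted, so ETS sites are not shown to be absent. A match is a description of the letters and not a binding site.

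With NR4A1 WT, the signal of FCGR2B and TREM2 rose well apart from the control, and that of CLEC5A fell. The adaptor TYROBP and 1 of the 2 probe sets of the adaptor FCER1G were lower by less than 0.5 on the log2 scale. Only that set of FCER1G was called, and its other set differed by 0.01. None of SYK was called. By limma's test over all 41091 probe sets (Benjamini-Hochberg adjusted p under 0.05), 2 of the 13 probe sets were higher with NR4A1 WT than with GFP, where 6.54% of all probe sets were, and 2 were lower (CLEC5A and 1 of FCER1G), where 7.07% were. Nothing is read from these shares, since the genes were chosen with this comparison known. The other 9 probe sets differed from GFP by -0.45 to 0.23 on the log2 scale. With NR4A1 CEAA, 0 probe sets were higher than with GFP (background 7.12%) and 2 were lower (background 8.64%), TREM2 and 1 of the 4 of SYK, while the other 11 differed by -0.27 to 0.38. Between the 2 forms of NR4A1, 3 probe sets were higher with NR4A1 WT (background 13.7%) and 2 lower (background 12.7%). The median difference of the 13 was -0.02 for NR4A1 WT, against 0.00 over all probe sets, and -0.16 for NR4A1 CEAA, against -0.01. The arrays of the 2 groups did not overlap in 6 of the 13 probe sets for NR4A1 WT against GFP (background 30.3%), in 5 for NR4A1 CEAA against GFP (48.7%) and in 9 for NR4A1 WT against NR4A1 CEAA (50.2%). Both comparisons with GFP use the same 3 control arrays.

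**Figure D1:**
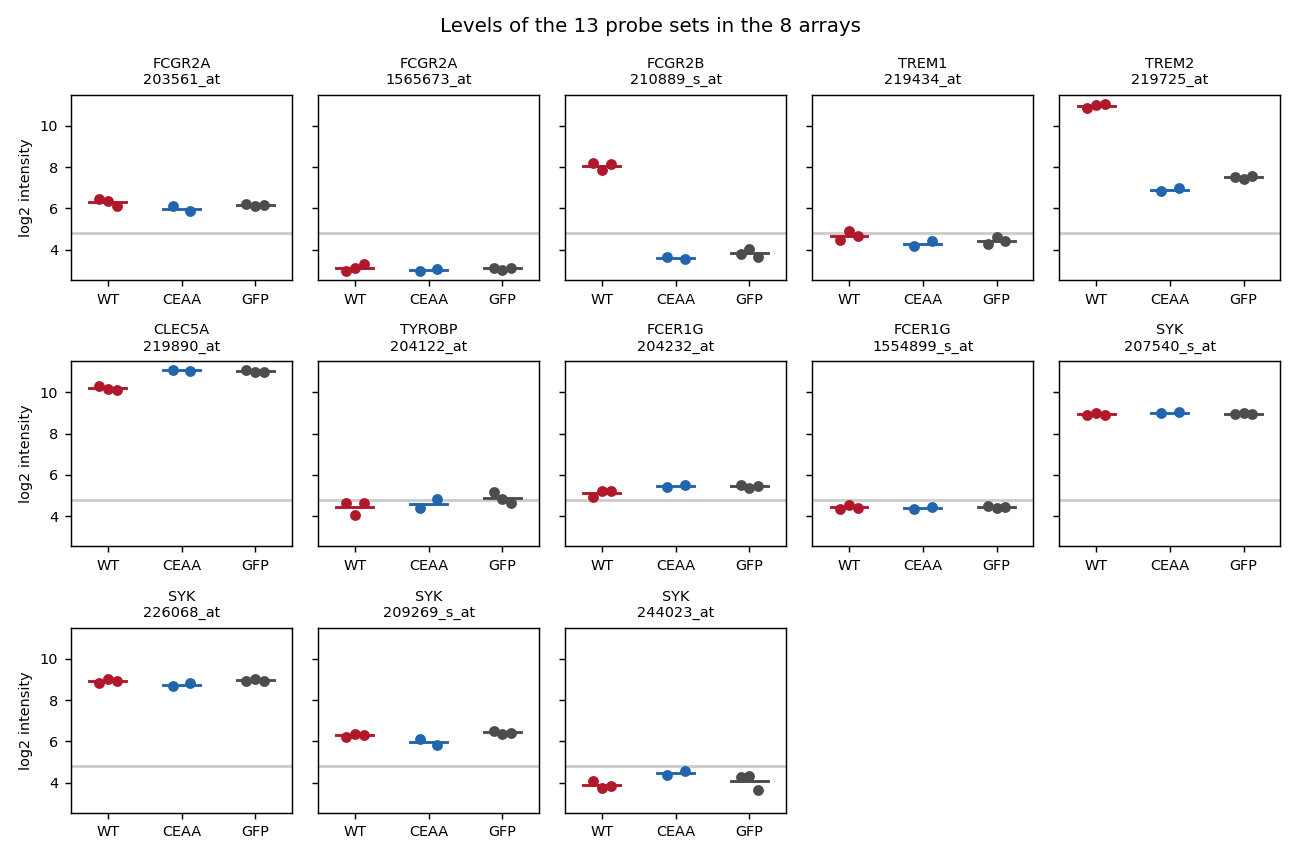
Log2 RMA intensity of each of the 13 probe sets in the 8 arrays, with NR4A1 WT left, NR4A1 CEAA in the middle and GFP right. Each point is 1 array, the bars are group means, and the grey band is the range of the array medians (4.755 to 4.802). FCGR2B and TREM2 stand out in the 3 NR4A1 WT arrays, and CLEC5A is lower there than in the other 5.

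FCGR2B had the widest difference of the group. Its 1 probe set (210889_s_at) read 8.22, 7.87 and 8.14 in the NR4A1 WT arrays, 3.64 and 3.53 in the NR4A1 CEAA arrays, and 3.80, 4.02 and 3.63 in the GFP arrays. The 3 NR4A1 WT arrays lay at least 3.85 log2 units above every other array, while the NR4A1 CEAA and GFP arrays overlapped. FCGR2B averaged 8.08 ± 0.18 with NR4A1 WT (SD, n = 3), 3.59 ± 0.08 with NR4A1 CEAA (SD, n = 2) and 3.81 ± 0.19 with GFP (SD, n = 3), which gave a log2 fold change of 4.26 (SE 0.12), or 19.2-fold, for NR4A1 WT over GFP. The 5 NR4A1 CEAA and GFP values were under the median of their array, where signal may be background, and the size of that ratio is uncertain. For NR4A1 CEAA the log2 fold change over GFP was -0.23 (SE 0.13, 95% interval -0.53 to 0.08, limma adjusted p = 0.308), and NR4A1 WT exceeded NR4A1 CEAA by 4.49 (SE 0.13).

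FCGR2C, in the same gene cluster, is a near-identical copy of FCGR2B over much of its length, and it was looked up after the values of FCGR2B were seen. Probe sets with the suffixes s and x can bind several transcripts, so the genes cannot be told apart fully on this array. Of the 3 probe sets listed for FCGR2C alone, 211395_x_at read 7.33, 7.59 and 7.57 with NR4A1 WT, 5.79 and 5.98 with NR4A1 CEAA and 5.78, 5.85 and 5.97 with GFP. The second, 210992_x_at, read 5.99, 6.01 and 6.35 with NR4A1 WT, 5.51 and 5.42 with NR4A1 CEAA and 5.34, 5.09 and 5.26 with GFP. Both were highest in the 3 NR4A1 WT arrays, by 1.63 and 0.88 over GFP. The third, 211396_at, without such a suffix, read 4.73, 5.01 and 5.10 with NR4A1 WT, 5.04 and 5.13 with NR4A1 CEAA and 5.19, 5.11 and 5.04 with GFP, and its groups overlapped. How much of the signal at these probe sets comes from which of the genes was not tested.

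**Figure D2:**
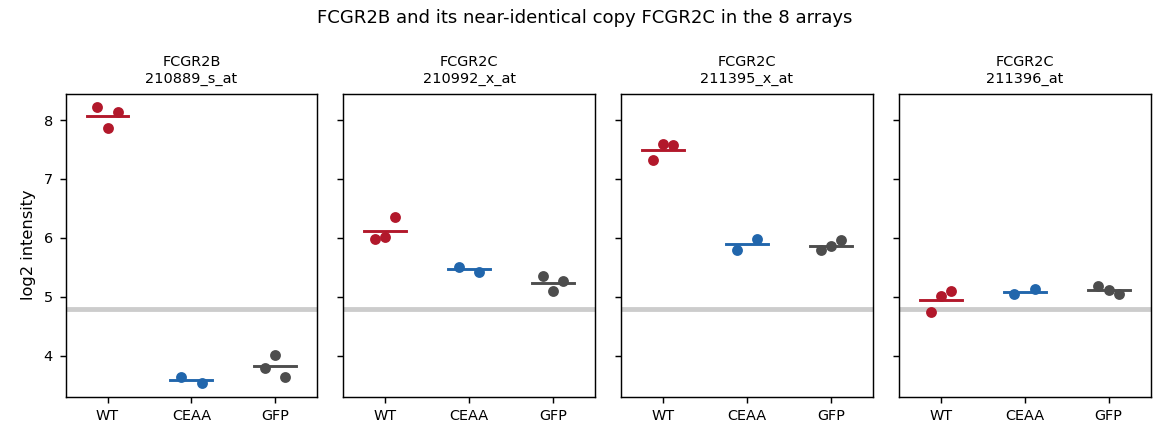
Log2 RMA intensity of the FCGR2B probe set and of the 3 probe sets listed for FCGR2C in the 8 arrays (points), with group means (bars) and the range of the array medians (grey), NR4A1 WT left, NR4A1 CEAA in the middle and GFP right. The 2 sets with the suffix x are higher in the NR4A1 WT arrays, as FCGR2B is, while 211396_at overlaps between the groups.

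FCGR2A, the activating Fc receptor with an ITAM in its own tail, changed little. Its brighter probe set (203561_at) read 6.45, 6.38 and 6.14 with NR4A1 WT, 6.11 and 5.86 with NR4A1 CEAA and 6.19, 6.10 and 6.17 with GFP. The NR4A1 WT arrays overlapped with GFP (0.17, SE 0.10), and so did the NR4A1 CEAA arrays (-0.17, 95% interval -0.42 to 0.08, adjusted p = 0.365). They did not overlap with each other, at 0.34 (SE 0.11) higher with NR4A1 WT, a difference that was not called. It was called without NR4A1 WT replicate 3, where it was 0.43. The other probe set (1565673_at) lay between 2.94 and 3.30 and under the median in all 8 arrays.

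Of the TREM receptors, TREM2 rose and TREM1 was near the array median throughout. TREM2 (219725_at) read 10.87, 11.03 and 11.06 with NR4A1 WT, 6.84 and 6.98 with NR4A1 CEAA and 7.53, 7.45 and 7.55 with GFP. The 3 groups did not overlap, and the order was NR4A1 WT, GFP, NR4A1 CEAA from high to low. TREM2 averaged 10.99 ± 0.10 with NR4A1 WT (SD, n = 3), 6.91 ± 0.09 with NR4A1 CEAA (SD, n = 2) and 7.51 ± 0.05 with GFP (SD, n = 3). The log2 fold change over GFP was 3.48 (SE 0.07), or 11.1-fold, for NR4A1 WT and -0.60 (SE 0.08) for NR4A1 CEAA, a signal 1.52-fold lower. The fall with NR4A1 CEAA was counted as called by limma but not by Rank Product (q = 0.0571), and NR4A1 WT exceeded NR4A1 CEAA by 4.08 (SE 0.08).

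TREM1 (219434_at) read 4.45, 4.90 and 4.66 with NR4A1 WT, 4.15 and 4.40 with NR4A1 CEAA and 4.27, 4.63 and 4.41 with GFP. It was under the array median in 7 of the 8 arrays, and both forms of NR4A1 overlapped with GFP. The difference from GFP was 0.23 (SE 0.14) for NR4A1 WT and -0.16 for NR4A1 CEAA (95% interval -0.51 to 0.18, adjusted p = 0.545). Between the forms, NR4A1 WT was 0.39 (SE 0.15) higher, which was called only without NR4A1 WT replicate 1 (0.50) and with the replicate number as a block (0.40) among the alternatives run.

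CLEC5A, a C-type lectin that pairs with TYROBP and binds dengue virus and other ligands, moved the other way from TREM2. Its probe set (219890_at) read 10.30, 10.17 and 10.14 with NR4A1 WT, 11.10 and 11.04 with NR4A1 CEAA and 11.10, 11.01 and 10.999 with GFP. The NR4A1 WT arrays lay below all the others, and the NR4A1 CEAA arrays overlapped with GFP. CLEC5A averaged 10.20 ± 0.09 with NR4A1 WT (SD, n = 3), 11.07 ± 0.04 with NR4A1 CEAA (SD, n = 2) and 11.03 ± 0.05 with GFP (SD, n = 3). Its signal was 1.78-fold lower with NR4A1 WT than with GFP (log2 fold change -0.83, SE 0.07). NR4A1 CEAA differed from GFP by 0.03 (SE 0.08, 95% interval -0.14 to 0.21, adjusted p = 0.817), and NR4A1 WT from NR4A1 CEAA by -0.87 (SE 0.08), which limma called and Rank Product did not (q = 0.135).

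The adaptors were dim on this array. TYROBP (204122_at) read 4.62, 4.04 and 4.61 with NR4A1 WT, 4.41 and 4.81 with NR4A1 CEAA and 5.15, 4.84 and 4.63 with GFP. The NR4A1 WT arrays lay just below the GFP arrays, by 0.01 at the nearest, and 5 of the 8 values were under the array median. The difference was -0.45 (SE 0.19, 95% interval -0.89 to -0.01) for NR4A1 WT, which was not called, and -0.27 for NR4A1 CEAA (95% interval -0.76 to 0.23, adjusted p = 0.475). The SD of TYROBP among the NR4A1 WT arrays was 0.34, against 0.10 for TREM2. TYROBP was thus not higher in the arrays in which TREM2 was.

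FCER1G was measured by 2 probe sets. The brighter (204232_at) read 4.92, 5.23 and 5.20 with NR4A1 WT, 5.43 and 5.50 with NR4A1 CEAA and 5.51, 5.37 and 5.44 with GFP. The NR4A1 WT arrays lay below the other 5, by -0.32 (SE 0.09) against GFP and -0.35 (SE 0.10) against NR4A1 CEAA, while NR4A1 CEAA overlapped with GFP (0.02, 95% interval -0.21 to 0.25, adjusted p = 0.914). Its call as lower with NR4A1 WT than with GFP is fragile, since it ended when any 1 of the arrays other than NR4A1 WT replicate 2 was left out, with differences of -0.37 to -0.23. The call against NR4A1 CEAA ended without GFP replicate 3 or either NR4A1 CEAA array. The second set (1554899_s_at) lay between 4.35 and 4.56, under the median in all 8 arrays, and its groups overlapped.

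SYK was measured by 4 probe sets that did not move together. The brightest (207540_s_at) read 8.89, 9.02 and 8.89 with NR4A1 WT, 9.001 and 9.03 with NR4A1 CEAA and 8.94, 8.98 and 8.95 with GFP. Its difference from GFP was -0.02 (SE 0.06) for NR4A1 WT and 0.06 for NR4A1 CEAA (95% interval -0.10 to 0.21, adjusted p = 0.647). The set 226068_at was close to it with NR4A1 WT, at 8.84, 9.003 and 8.95, and with GFP, at 8.95, 9.01 and 8.94, and lower with NR4A1 CEAA, at 8.68 and 8.83 (-0.21, 95% interval -0.39 to -0.03, adjusted p = 0.112).

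The set 209269_s_at was the only one of SYK past the test. It read 6.24, 6.36 and 6.29 with NR4A1 WT, 6.12 and 5.83 with NR4A1 CEAA and 6.53, 6.37 and 6.42 with GFP, and NR4A1 CEAA was below every array of the other groups. The fall with NR4A1 CEAA was -0.46 (SE 0.10, limma adjusted p = 0.0147), and it was -0.32 (adjusted p = 0.113) without NR4A1 CEAA replicate 2, the lower array. By Rank Product it did not pass (q = 0.177). Against NR4A1 CEAA, NR4A1 WT was 0.32 (SE 0.10) higher, a call that ended without any 1 of the arrays other than NR4A1 CEAA replicate 1 and whose difference was 0.18 without NR4A1 CEAA replicate 2. The dimmest set (244023_at) read 4.09, 3.76 and 3.85 with NR4A1 WT, 4.35 and 4.57 with NR4A1 CEAA and 4.29, 4.30 and 3.64 with GFP, all under the array median, and was not called. Against GFP, NR4A1 CEAA differed by 0.06 in 207540_s_at, -0.21 in 226068_at and 0.38 in 244023_at. Since 1 of 4 sets was called and these differ in direction, a fall of the SYK transcript as a whole is not shown.

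**Figure D3:**
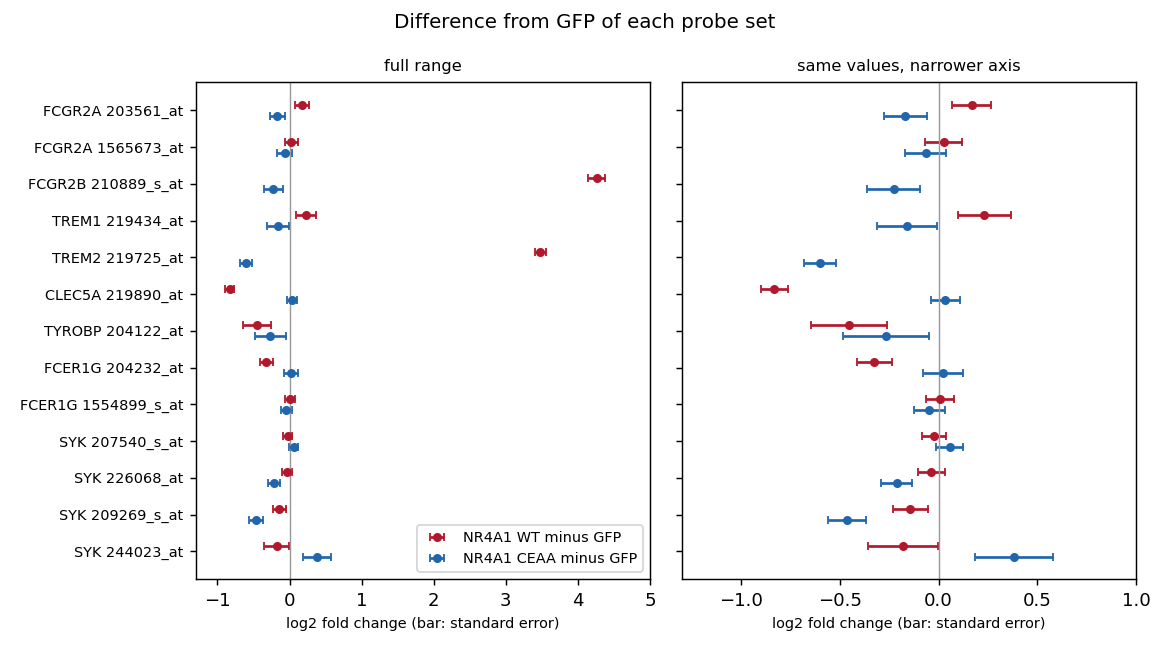
Log2 fold change of each probe set against GFP for NR4A1 WT (red) and NR4A1 CEAA (blue), with the standard error of the fit as the bar. The panel at right repeats the values on a narrower axis, which leaves out the NR4A1 WT values of FCGR2B (4.26) and TREM2 (3.48). CLEC5A (-0.83) is the lowest with NR4A1 WT, and TREM2 (-0.60) the lowest with NR4A1 CEAA.

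Other receptors and adaptors of the pathway were taken from a list written from general knowledge, with earlier results of these data known. Each was followed by its brightest probe set. Genes named from this and the 2 pathway lists below were picked for the size of their change, so their p-values are a description. Of 39 ITAM-coupled receptors and adaptors outside the 8 genes, 30 had a probe set. With NR4A1 WT, 2 rose and 4 fell, against 8.18% and 8.76% of all genes, and with NR4A1 CEAA, 0 rose and 2 fell, against 5.95% and 10.5%. Between the 2 forms, 3 were higher and 4 lower with NR4A1 WT, against 16.5% and 12.2%. The median against GFP was -0.06 with NR4A1 WT and -0.03 with NR4A1 CEAA. SIGLEC15, a sialic acid receptor that couples to TYROBP, read 7.55, 7.78 and 7.44 with NR4A1 WT, 5.53 and 5.62 with NR4A1 CEAA and 5.81, 5.68 and 5.66 with GFP. Like TREM2 it was high in the 3 NR4A1 WT arrays only (1.87 over GFP, SE 0.09, adjusted p = 7.37e-06).

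The 3 receptors that fell with NR4A1 WT were CLEC4E, LILRA2 and CLEC4D. CLEC4E (Mincle), which senses mycobacterial glycolipid, read 6.26, 6.54 and 6.08 with NR4A1 WT, 6.95 and 6.94 with NR4A1 CEAA and 7.07, 6.98 and 7.04 with GFP (-0.74, SE 0.11, adjusted p = 0.00225), and its other probe set was not called. LILRA2, a leukocyte Ig-like receptor, differed by -0.71 (SE 0.07, adjusted p = 0.000204), and its 3 other probe sets were lower with NR4A1 WT as well. These 3 were also lower with NR4A1 CEAA, where the brightest set was not (-0.07, adjusted p = 0.569). CLEC4D, the partner of CLEC4E, differed by -0.56 (SE 0.09, adjusted p = 0.00336), but it did not pass by Rank Product and its other probe set was not called. These calls held with each array left out in turn. With NR4A1 CEAA the falls were those of HCST (DAP10), an adaptor without an ITAM that recruits PI3 kinase (-0.54, adjusted p = 0.00286, against -0.25 with NR4A1 WT, adjusted p = 0.0433), and CD79B, a signal chain of the B cell receptor (-0.56, adjusted p = 0.00769, and adjusted p = 0.0737 without NR4A1 CEAA replicate 2). CD79B rose with NR4A1 WT (0.38, adjusted p = 0.0251), a call that ended without any 1 of the GFP arrays, and the 2 forms of NR4A1 differed by 0.94 (adjusted p = 0.00027). The 2 other probe sets of CD79B were not called in any of these comparisons.

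Downstream of the ITAM, 36 of 41 listed genes were measured. With NR4A1 WT, 4 rose and 10 fell (8.18% and 8.76% of all genes), and with NR4A1 CEAA, 2 rose and 9 fell (5.95% and 10.5%), with medians of -0.07 and -0.06. The count of 9 falls was 0 without NR4A1 CEAA replicate 1 and 2 to 4 without NR4A1 CEAA replicate 2 or 1 of the GFP arrays, and Rank Product called 0. The count of 10 falls was 6 without GFP replicate 2, and 3 by Rank Product. The 4 rises were 2 without GFP replicate 1 or NR4A1 WT replicate 3, and the 2 rises with NR4A1 CEAA were 1 without any 1 GFP array or NR4A1 WT replicate 3 and 0 without either NR4A1 CEAA array. Between the 2 forms, 7 were higher and 8 lower with NR4A1 WT (16.5% and 12.2% of all genes), and these 8 were 3 to 5 without NR4A1 WT replicate 3 or either NR4A1 CEAA array. CBLB, a ubiquitin ligase that restrains SYK signaling, read 7.63, 7.56 and 7.68 with NR4A1 WT, 6.68 and 6.85 with NR4A1 CEAA and 6.34, 6.57 and 6.48 with GFP (1.16 for NR4A1 WT, SE 0.08, adjusted p = 4.73e-05). Only 1 of its 2 other probe sets was higher too.

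Among those that fell were DOK3, an adaptor that dampens ITAM signals (-0.78, SE 0.06, adjusted p = 0.00011, with its other probe set lower too), and NFATC2, a calcium-regulated transcription factor (-0.76, adjusted p = 0.000628, with 1 of its 3 other probe sets lower). LAT2, the membrane scaffold of myeloid and B cells, was lower too (-0.63, adjusted p = 0.0194). Its other probe set was not called, and this call ended without GFP replicate 2, GFP replicate 3, NR4A1 WT replicate 1 or NR4A1 WT replicate 3. With NR4A1 CEAA, the adaptor LCP2 (SLP-76) fell by 0.49 (adjusted p = 0.0078) and the GTPase RAC2 by 0.43 (adjusted p = 0.00579), and both calls ended without NR4A1 CEAA replicate 1. None of the 5 other probe sets of LCP2 was called for NR4A1 CEAA against GFP, while the other set of RAC2 was lower too. NFATC2 was lower with NR4A1 CEAA as well (-0.41, adjusted p = 0.0224).

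The inhibitory side, to which FCGR2B belongs, was followed in 25 of 28 listed ITIM receptors and phosphatases. This list also holds the adaptors DOK1 and DOK2, which are part of the counts below. With NR4A1 WT, 3 rose and 3 fell (8.18% and 8.76% of all genes), and with NR4A1 CEAA, 1 rose and 6 fell (5.95% and 10.5%), with medians of -0.05 and -0.17. The 3 rises were 6 with an intensity trend in the test or without dim probe sets. The 6 falls were 3 without either NR4A1 CEAA array and 0 by Rank Product, and the 1 rise ended without any of the GFP or NR4A1 CEAA arrays or NR4A1 WT replicate 3. Between the 2 forms, 8 were higher and 3 lower with NR4A1 WT (16.5% and 12.2%). TREML1, an ITIM-bearing receptor of platelets and the only inhibitory receptor listed from the TREM family, read 8.09, 8.42 and 8.30 with NR4A1 WT, 5.49 and 5.61 with NR4A1 CEAA and 5.60, 5.83 and 5.57 with GFP. It was high in the NR4A1 WT arrays alone (2.60, SE 0.10, adjusted p = 2.23e-06), and for NR4A1 CEAA its difference from GFP was -0.12 (adjusted p = 0.556).

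CD300A, an inhibitory lipid receptor, read 6.83, 7.09 and 6.89 with NR4A1 WT, 8.09 and 8.23 with NR4A1 CEAA and 8.40, 8.45 and 8.48 with GFP. It fell by 1.50 with NR4A1 WT (SE 0.08, adjusted p = 1.12e-05), while its relative CD300LF rose by 0.83 (SE 0.07, adjusted p = 0.000147). Of the 2 other probe sets of CD300A, 1 was lower with NR4A1 WT. With NR4A1 CEAA 1 of them was lower too, where the brightest was not called (-0.28, adjusted p = 0.0717). LAIR1, the collagen receptor, rose by 0.64 with NR4A1 WT (adjusted p = 0.000253) and fell by 0.32 with NR4A1 CEAA (adjusted p = 0.0165). VSTM1, an ITIM receptor of granulocytes and monocytes, fell with NR4A1 CEAA (-0.46, adjusted p = 0.00341) and with NR4A1 WT (-0.60, adjusted p = 0.000319). SIRPA, which binds CD47, fell by 0.46 with NR4A1 CEAA (adjusted p = 0.00375), and for NR4A1 WT its difference was 0.18 (adjusted p = 0.1). Inhibitory receptors thus included a large rise and a large fall in the same arrays.

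**Figure D4:**
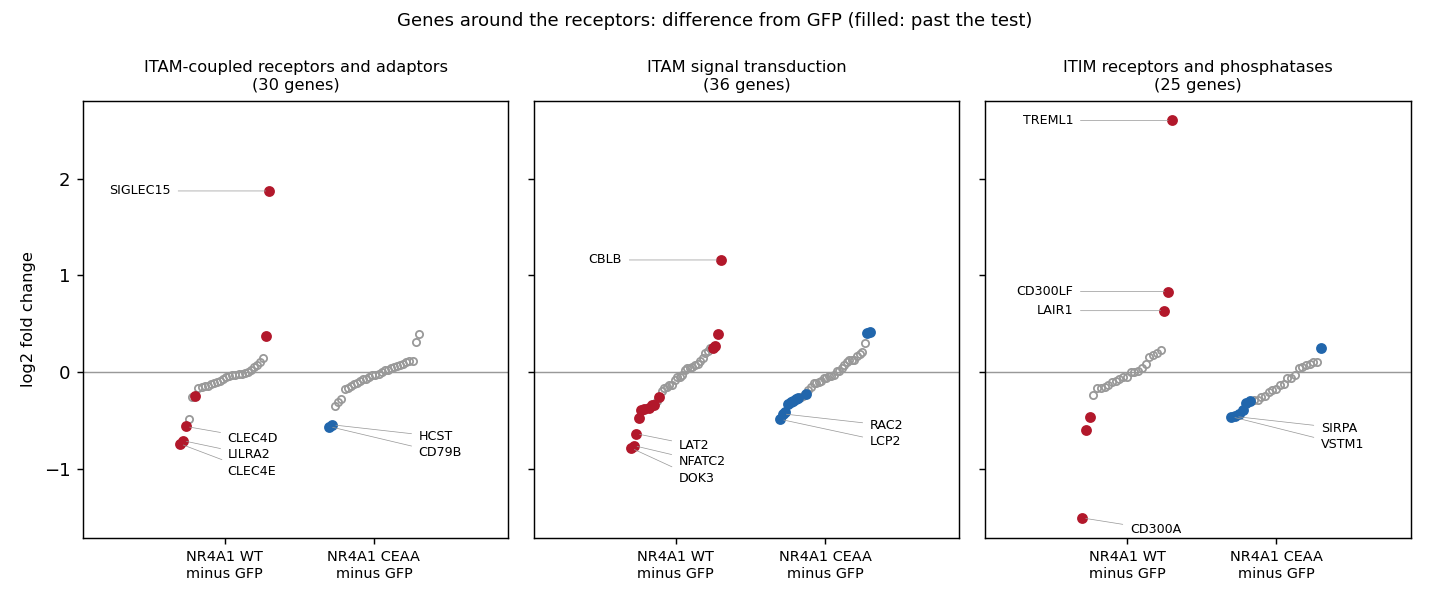
Log2 fold change against GFP of the genes of 3 lists, each gene 1 point in order of size, for NR4A1 WT (left) and NR4A1 CEAA (right). Filled points passed limma's test over all probe sets and open points did not. SIGLEC15 (1.87), CBLB (1.16) and TREML1 (2.60) rise furthest in their lists with NR4A1 WT, and CD300A (-1.50) falls furthest.

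The pattern over the 8 arrays was also matched to every gene whose values spanned at least 1 on the log2 scale, 837 in all. The genes nearest to FCGR2B were PIP5K1B, RAB27B and MARCKS, each with a Pearson r of 0.998. Those nearest to TREM2 were HAVCR2, SCAT1 and TMT1A, each with an r of 0.999. Of the 837 genes, 202 had an r of 0.95 or more with FCGR2B and 195 with TREM2. Such an r rests mainly on the step between the NR4A1 WT arrays and the rest, so it names genes with the same step and not a finer likeness. MARCKS, for example, averaged 6.32 with NR4A1 WT, 3.50 with NR4A1 CEAA and 3.76 with GFP.

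Of 10 measured myeloid blast markers, 9 were above the array median in all 8 arrays, with MPO at 14.34 to 14.43 and KIT at 13.45 to 13.78. Many of them moved, however. With NR4A1 WT, 2 rose and 5 fell, against 8.18% and 8.76% of all genes, and with NR4A1 CEAA, 2 rose and 4 fell, against 5.95% and 10.5%. Those that rose were CD34 (0.28) and CD38 (0.37) with NR4A1 WT, and KIT (0.25) and CD38 (0.44) with NR4A1 CEAA. The granule protease genes fell with both forms, ELANE by 0.47 with NR4A1 WT (adjusted p = 0.00311) and 0.61 with NR4A1 CEAA (adjusted p = 0.00225), and PRTN3 by 0.38 (adjusted p = 0.00841) and 1.06 (adjusted p = 0.000281). Of 15 measured monocyte and macrophage markers, 7 were under the median in all 8 arrays, among them CD14 at 3.57 to 4.32. With NR4A1 WT, MS4A7 (0.56, adjusted p = 0.00292), C1QB (0.29, adjusted p = 0.0388) and CD4 (0.23, adjusted p = 0.0242) rose, and CSF1R, the receptor for macrophage colony-stimulating factor, fell (-0.68, adjusted p = 0.000979). C1QB was itself under the array median in all 8 arrays, at 3.61 to 4.23. None of these 3 rises passed by Rank Product, while the fall of CSF1R did. The mean level of that list was 4.95 to 5.06 in the NR4A1 WT arrays, 4.99 to 5.003 in the NR4A1 CEAA arrays and 4.999 to 5.07 in the GFP arrays, which overlap. The mean level of 8 dendritic cell markers was highest with NR4A1 WT, at 5.81 to 5.94, against 5.59 to 5.64 with NR4A1 CEAA and 5.39 to 5.48 with GFP. For NR4A1 WT against GFP, 3 were higher and 1 lower (8.18% and 8.76% of all genes). The 3 higher were CD83 (2.05), FLT3 (1.19) and CD1C (0.89), and the lower was IRF8 (-0.76). For NR4A1 CEAA against GFP, 3 were higher and 0 lower (5.95% and 10.5% of all genes). These were CD1C (0.60), FLT3 (0.52) and IRF8 (0.31), and Rank Product called 0 of them. Of these 8 genes, 4 were under the array median in all 8 arrays. With NR4A1 WT, 1 of 5 mast cell and basophil markers, 1 of 7 B cell markers and 0 of 8 T and NK cell markers were higher, against that 8.18%, and none of these 3 lists had a gene lower. The part of these marker changes in the results for FCGR2B, TREM2 and CLEC5A was not tested, and fewer cells with a transcript and less of it per cell cannot be told apart in RNA from whole cultures. NR4A1 itself lay between 5.06 and 6.66 in its 3 probe sets in every group, which gives no check of the group names, as it is not known here whether these sets read the introduced RNA.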

How the data were processed

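RNA from 8 Kasumi-1 samples was measured on Affymetrix arrays, and the labels do not say whether the arrays of a group came from separate cultures, so that the tests cover the spread between arrays, which may be technical. The authors deposited log2 intensities made by RMA in RMA Express, whose version is not given in the sources used here; RMA subtracts background, equalizes the arrays' distributions and gives each probe set 1 value. The values ran from 2.285 to 14.97, with array medians of 4.755 to 4.802, and replicates differed with an SD of 0.158 to 0.227 over 7 pairs. Precision is limited by the number of arrays. Of 54613 probe sets, the 41091 with exactly 1 gene symbol entered 1 linear model of 3 groups (limma 3.58.1, R 4.3.3, default eBayes, 8.52 degrees of freedom), with p adjusted by Benjamini-Hochberg over all. The 1801 probe sets with several symbols and 11721 with none were left out, among them 1565674_at, listed for both FCGR2A and FCGR2C. Rank Product, the test of the study's methods, was rerun with 100 permutations within arrays and a q under 0.05, and both tests were tested on simulated data.

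The genes and lists were chosen with earlier results of these data known. All probe sets of the 8 genes are given. From each of the 3 pathway lists, the text names up to 4 genes with the largest difference for NR4A1 WT against GFP and up to 2 for NR4A1 CEAA, among those past the test without overlap between groups, and for FCGR2B and TREM2 the 3 genes of highest Pearson r. FCGR2C, and the ETS core, were added after values were seen. Lists used 1 probe set per gene, the brightest, and the 6 marker lists are those of the last paragraph above. Alternatives were an intensity trend, array weights, only 2 groups, a filter on dim sets, centering, a replicate block, a further quantile normalization, 1 set per gene, all sets, an adjusted p under 0.01, Rank Product and each array left out.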

Additional observations from a re-analysis of the deposited data

How the results depend on the processing

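The rises of FCGR2B and TREM2 with NR4A1 WT, against GFP and against NR4A1 CEAA, and the fall of CLEC5A against GFP were called under each alternative that fitted them. The genes were brought together with the rises of FCGR2B and TREM2 known, so these calls remain a description. Counts of the 13 probe sets moved where they rest on small differences. For NR4A1 WT against GFP, 2 were lower, and 1 (CLEC5A) with an intensity trend, with only the 2 groups, with the replicate block, with all probe sets, at an adjusted p under 0.01 and by Rank Product, and 1 to 2 with an array left out. For NR4A1 CEAA against GFP, 2 were lower, 1 with 1 probe set per gene (8 sets) and at 0.01, 0 by Rank Product, and 1 to 2 with an array left out. For NR4A1 WT against NR4A1 CEAA, 3 were higher and 5 with the trend, and 2 were lower, 1 with the replicate block and at 0.01, 0 by Rank Product and 1 to 2 with an array left out. No called value of the 8 genes changed direction; differences near 0 that were not called, such as FCGR2A 1565673_at (0.03, and -0.01 without GFP replicate 2), could change sign. The cause of these moves was not tested. In the pathway lists, ITIM genes higher with NR4A1 WT than with GFP were 3, and 6 with the trend or without dim sets; ITIM genes lower with NR4A1 CEAA were 6, and 10 with array weights or without dim sets; ITAM signal genes higher with NR4A1 CEAA were 2, and 5 with the trend or without dim sets; those lower were 9, and 3 with the replicate block.

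Deviations from the group means had an r of -0.03 to 0.06 in 7 pairs of arrays with the same replicate number. In 14 pairs of different numbers r was -0.08 to 0.08. Deviations cancel within a group, so the 2 NR4A1 CEAA arrays give r values of equal size and opposite sign. Whether the replicate number marks arrays that belong together was not tested. Over all probe sets, Rank Product called 714 higher and 666 lower for NR4A1 WT against GFP, where limma called 2686 and 2904; 261 and 621 for NR4A1 CEAA against GFP, where limma called 2924 and 3552; and 719 and 314 for NR4A1 WT against NR4A1 CEAA, where limma called 5611 and 5218. With 2 arrays of NR4A1 CEAA, values of that group are the least certain, and no detection call was available for the dim sets of TREM1, TYROBP, FCGR2B, FCGR2A and FCER1G.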
